A study of Mus musculus with 24 samples.

Results

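The genes described are 8 that write, erase or read DNA methylation, taken by name from a table of 46983 genes measured by bulk mRNA sequencing of the mouse hippocampus. They are the writers *Dnmt1* and *Dnmt3a*, the erasers *Tet1*, *Tet2* and *Tet3*, and the methyl-CpG binding domain genes *Mbd1*, *Mbd2* and *Mbd3*. They were given by name, with no threshold on expression, and all 8 passed the filter on low counts, as did 16209 genes in all. The samples were 24 female C57BL/6 mice in 4 groups of 6, which crossed genotype with early life stress (ELS). Fkbp5Nex mice lost *Fkbp5*, which encodes the stress-related co-chaperone FKBP51, through Cre recombinase expressed from the *Nex* locus. The recombinase acts from embryonic life in glutamatergic forebrain neurons, hippocampus included, but spares the dentate gyrus. Glia, interneurons and granule cells in the same tissue therefore kept the gene. Fkbp5lox/lox littermates carried the floxed alleles without Cre and served as wild types. ELS mice were raised from postnatal day 2 to 9 with limited bedding and nesting material, and control mice with the usual amount. Tissue came from punches of 1 mm diameter through the dorsal and the ventral hippocampus. Per the study, the sequenced mice belonged to its first cohort, which went through a battery of behavioural tests at 6 months. Their age at tissue collection was not given in the sources used here.

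In mammals, DNA methylation sits mainly on cytosines that precede a guanine (CpG). DNMT1 copies the mark onto the new strand after replication, and DNMT3A sets it on unmethylated DNA, an activity that neurons keep after they stop dividing. The TET enzymes oxidise 5-methylcytosine to 5-hydroxymethylcytosine, which is abundant in brain, and thereby open the way to demethylation. Proteins with a methyl-CpG binding domain read the mark: MBD1 and MBD2 bind methylated CpG, whereas mammalian MBD3 binds it poorly. MBD2 and MBD3 are alternative subunits of the NuRD complex, which combines chromatin remodelling with histone deacetylation. Altered DNA methylation has been linked to early adversity and, in glucocorticoid response elements of *FKBP5* itself, to stress-related disorders. The question asked of these data was whether the RNA of these genes differed by *Fkbp5* genotype, by ELS or by their combination.

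Members differ widely in the CpG content of their annotated start sites. Sequence windows of 300 bases, 250 before and 50 after an annotated start, were taken from RefSeq (GRCm38.p6) for 6 members at 10 starts. The 2 remaining members, *Mbd1* and *Mbd2*, were not analysed in this way. Of 32851 such windows for all genes, the median held 7 CpG. The *Tet2* window (chr3:133544341-133544640, minus strand) held 57, more than 99.8% of all windows. *Dnmt1* held 2 CpG at its most upstream start (chr9:20959839-20960138, minus strand) and 33 at a downstream one (chr9:20952574-20952873, minus strand). These 3 are shown because they span the range among the members, with CpG in capitals. Which of the annotated starts are used in the hippocampus was not tested.

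Tet2: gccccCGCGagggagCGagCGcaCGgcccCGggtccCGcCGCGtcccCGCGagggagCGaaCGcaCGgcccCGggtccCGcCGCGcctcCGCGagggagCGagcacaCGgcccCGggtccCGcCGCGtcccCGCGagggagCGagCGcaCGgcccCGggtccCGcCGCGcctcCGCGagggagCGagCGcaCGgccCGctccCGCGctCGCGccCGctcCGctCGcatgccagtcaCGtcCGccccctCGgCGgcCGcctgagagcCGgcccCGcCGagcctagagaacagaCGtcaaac
Dnmt1 upstream start: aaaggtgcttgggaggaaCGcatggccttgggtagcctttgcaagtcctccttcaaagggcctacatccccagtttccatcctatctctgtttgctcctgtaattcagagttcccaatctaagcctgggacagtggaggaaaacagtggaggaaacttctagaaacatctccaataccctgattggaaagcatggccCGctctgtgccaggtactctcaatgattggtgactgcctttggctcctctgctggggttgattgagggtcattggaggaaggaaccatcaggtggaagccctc
Dnmt1 downstream start: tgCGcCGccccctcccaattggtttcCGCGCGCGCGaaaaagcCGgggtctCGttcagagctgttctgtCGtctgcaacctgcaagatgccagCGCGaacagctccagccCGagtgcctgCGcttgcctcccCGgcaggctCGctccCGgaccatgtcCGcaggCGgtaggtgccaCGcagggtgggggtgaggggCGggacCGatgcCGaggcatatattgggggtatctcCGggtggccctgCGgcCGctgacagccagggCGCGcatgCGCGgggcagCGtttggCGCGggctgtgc

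The other windows held 12 CpG for the remaining *Dnmt1* start, 46, 47 and 18 for *Dnmt3a*, 17 for *Tet1*, 22 for *Tet3* and 22 for *Mbd3*. A palindromic glucocorticoid receptor motif, AGNACA and TGTNCT with 3 free bases between them, searched on both strands, was in 0 of the 10 windows and in 21 of all 32851 (0.0639%). The absence says only that these letters are not in the windows.

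Libraries held 18347283 to 26555623 counted reads, and every member had at least 171 reads in every mouse. *Tet1* had the fewest, 171 to 389, so counting error weighs most on that gene. Its share of the spread of *Tet1* was not estimated. *Fkbp5* itself checked the genotype labels. Its level was 47.7 to 63.4 CPM (read counts scaled to library size, with TMM factors) in Fkbp5lox/lox controls and 56.4 to 62.2 in Fkbp5lox/lox ELS mice, against 8.71 to 26.5 and 10.0 to 23.1 CPM in the Fkbp5Nex groups. The genotype difference was -2.04 on the log2 scale (standard error 0.10, adjusted p = 5.75e-12, edgeR's quasi-likelihood test). Of 40 fixed markers of hippocampal and neighbouring cell types, 39 passed the filter, and *Folr1* of the choroid plexus did not. The neuronal markers summed to 3474 to 5757.5 CPM per mouse. Marker sums of adjoining tissue varied more, from 57.8 to 284 CPM for thalamus and from 14.2 to 4530 CPM for choroid plexus. Some markers moved with genotype. The 3 dentate gyrus markers summed to medians of 208 and 226 CPM in Fkbp5lox/lox control and ELS mice and 105 and 95.1 CPM in the Fkbp5Nex groups, with ranges that overlapped. Of them *Prox1* (log2 fold change -0.49) and *Dsp* (-1.07), and of the choroid plexus markers *Ttr* (-3.07), were lower in Fkbp5Nex mice at the FDR of 0.02. Their part in the members' values was not tested. In bulk tissue, fewer cells of a type and less RNA per cell cannot be told apart.

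Fkbp5Nex control mice 12 and 52 stood apart. Mouse 12 lay 2.24 SD from the mean on the first principal component and mouse 52 -3.84 SD on the second. Over all genes they deviated from their group by a similar amount, with an SD of the log2 deviations of 0.509 in mouse 12 and 0.492 in mouse 52, but over the members the mean size of the deviation was 0.184 in mouse 12, within the range of the others, and 0.441 in mouse 52. The 4 members with the longest exons were low in mouse 52. Each mouse was compared with the mean of the other mice in its group, on the log2 scale. In mouse 52, *Tet1* differed by -0.71, *Tet2* by -0.65, *Dnmt3a* by -0.64 and *Tet3* by -0.50, each beyond the range of the other 23 mice. *Mbd3* differed by 0.50, where the other mice reached 0.24 at most. *Mbd1*, at -0.26, was also below the others, while *Dnmt1* (-0.10) and *Mbd2* (0.17) lay within their range. The summed exon length is 15.5 to 16.9 kb for those 4 long genes, placing each at the 97.8th percentile or above of tested genes, and 1.99 kb for *Mbd3*, at the 17.5th percentile. Over 16152 genes with a known length, the rank correlation of exon length with the deviation was -0.42 in mouse 52 and between -0.18 and 0.19 in the others. Genes are not independent replicates, and the value describes that library. Split at the quartiles of length, the median deviation in it was 0.25 for the shortest genes and -0.24 for the longest. Mouse 52 also had the fewest detected genes of the 24 libraries (22868). From the top, its marker sums ranked 24 for choroid plexus, 20 for neurons, and 2 for astrocytes and for CA1. Those for thalamus (11), dentate gyrus (12) and endothelium (12) were in the middle. The reason for its profile was not tested.

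**Figure D1:**
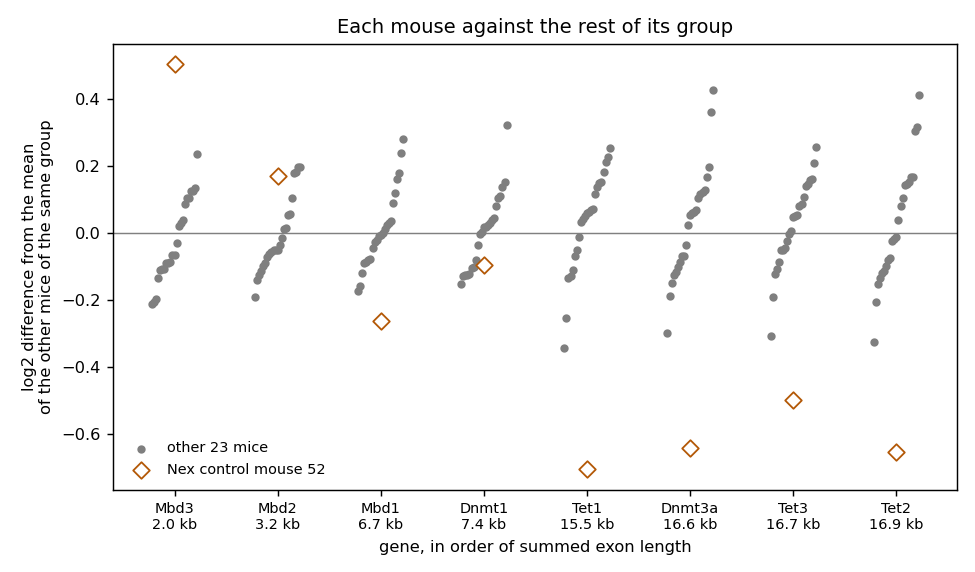
Log2 difference of each mouse from the mean of the other mice in its group (y axis), for the 8 members in order of summed exon length in kb (x axis). Grey points are 23 mice, sorted by value within a gene, and the open diamond is Fkbp5Nex control mouse 52, which lies at 0.50 for *Mbd3* and between -0.71 and -0.50 for the 4 longest genes.

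Per exon length, the readers *Mbd3* and *Mbd2* were the most abundant members and the eraser *Tet1* the least. Levels between genes are compared in RPKM, which is CPM per kilobase of exon (TMM-scaled), as mean ± SD over 24 mice. *Mbd3* had 40.1 ± 4.10 RPKM, *Mbd2* 11.3 ± 0.813 and *Mbd1* 4.75 ± 0.365. Of the writers, *Dnmt1*, the maintenance enzyme, had 6.69 ± 0.475 RPKM and *Dnmt3a* 4.80 ± 0.573. The erasers had 2.83 ± 0.277 (*Tet3*), 2.82 ± 0.359 (*Tet2*) and 0.813 ± 0.0917 RPKM (*Tet1*). In descending order the members ran *Mbd3*, *Mbd2*, *Dnmt1*, *Dnmt3a*, *Mbd1*, *Tet3*, *Tet2* and *Tet1*. Neighbours in this order were ranked the same way in 24 of 24 mice with ranges that did not overlap, except for a pair in the middle and a pair lower down. *Dnmt3a* was above *Mbd1* in 13 of 24 mice, and *Tet3* above *Tet2* in 15 of 24. These pairs did not differ beyond their spread. Each gene's length is fixed, from exons merged across transcripts, so agreement between mice does not test the order between genes. In raw counts *Dnmt3a* was above *Dnmt1*, with single-mouse ratios from 1.15 to 1.90. Their order per length therefore rests on the lengths used.

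**Figure D2:**
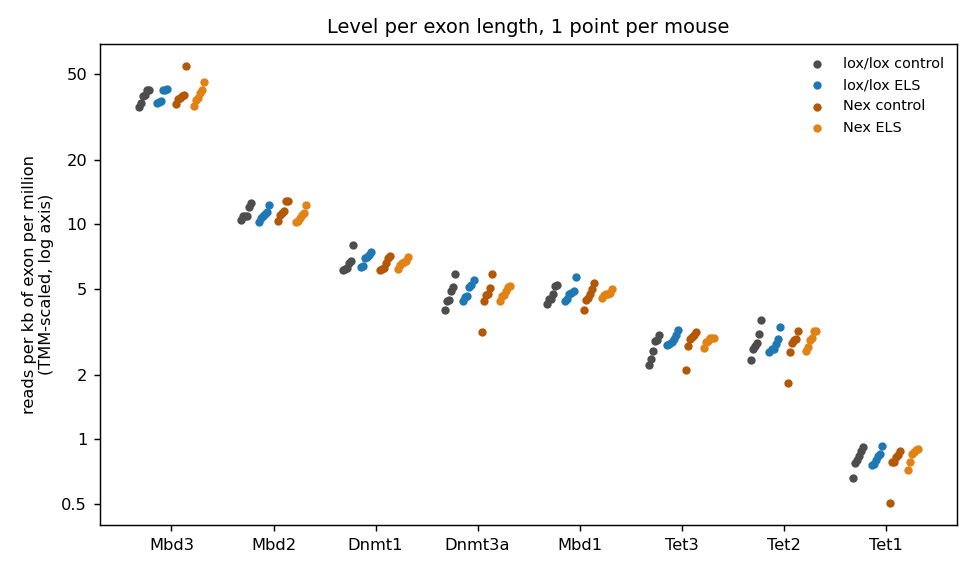
Level of each member in RPKM (CPM per kilobase of exon, TMM-scaled) on a log axis, with 1 point per mouse, sorted by value within each of the 4 groups. *Mbd3* lies highest (mean 40.1) and *Tet1* lowest (mean 0.813), and *Dnmt3a* overlaps *Mbd1* as *Tet3* overlaps *Tet2*.

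Groups overlapped in every member, and the share of all genes that do so was not computed. *Dnmt1* ranged from 45.5 to 58.9 CPM (median 47.5) in Fkbp5lox/lox controls and from 46.5 to 55.0 (median 51.7) in Fkbp5lox/lox ELS mice. In Fkbp5Nex mice it ranged from 45.4 to 52.7 (median 47.5) in controls and from 45.5 to 52.1 (median 49.2) after ELS. The highest value, 58.9 CPM in mouse 44, stood above its 5 group mates, which reached 50.0. *Dnmt3a* had medians of 78.0, 81.2, 78.8 and 79.8 CPM in the same order of groups. Its lowest value was 52.6 CPM in mouse 52, and its highest 97.5 and 97.4 CPM were both in controls, 1 of each genotype.

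Among the erasers, *Tet3* had its lowest median in Fkbp5lox/lox controls, with a range that overlapped those of the other groups. *Tet3*, a TET gene with a known role in reprogramming of the zygote, ranged from 37.0 to 51.2 CPM (median 45.4) in Fkbp5lox/lox controls and from 46.0 to 53.8 (median 48.3) in Fkbp5lox/lox ELS mice. In Fkbp5Nex mice it ranged from 35.1 to 52.7 (median 49.5) in controls and from 44.7 to 49.5 (median 48.6) after ELS. In Fkbp5lox/lox controls, 3 of 6 mice, at 37.0, 39.6 and 42.9 CPM, lay below every mouse of both ELS groups. *Tet1* had medians of 12.7, 12.7, 12.5 and 13.4 CPM and *Tet2* of 46.4, 45.6, 48.2 and 49.5 CPM in the order of groups used above. Both were lowest in mouse 52, at 7.82 and 30.7 CPM.

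The readers *Mbd1* and *Mbd2* varied little. *Mbd1* stayed between 26.9 and 38.0 CPM over all 24 mice, with group medians from 31.0 to 32.0. *Mbd2* did not exceed 41.4 CPM, with medians from 35.0 to 36.6. *Mbd3* ranged from 69.6 to 91.3 CPM in 23 mice and reached 108.7 in mouse 52, while its group medians lay between 77.8 and 79.1. The coefficient of variation over 24 mice was 7.10% for *Dnmt1*, 7.20% for *Mbd2* and 7.68% for *Mbd1*, and between 9.79% and 12.7% for the other 5 members. Without mouse 52 that of *Tet1* went from 11.3% to 7.95% and that of *Mbd3* from 10.2% to 6.95%.

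**Figure D3:**
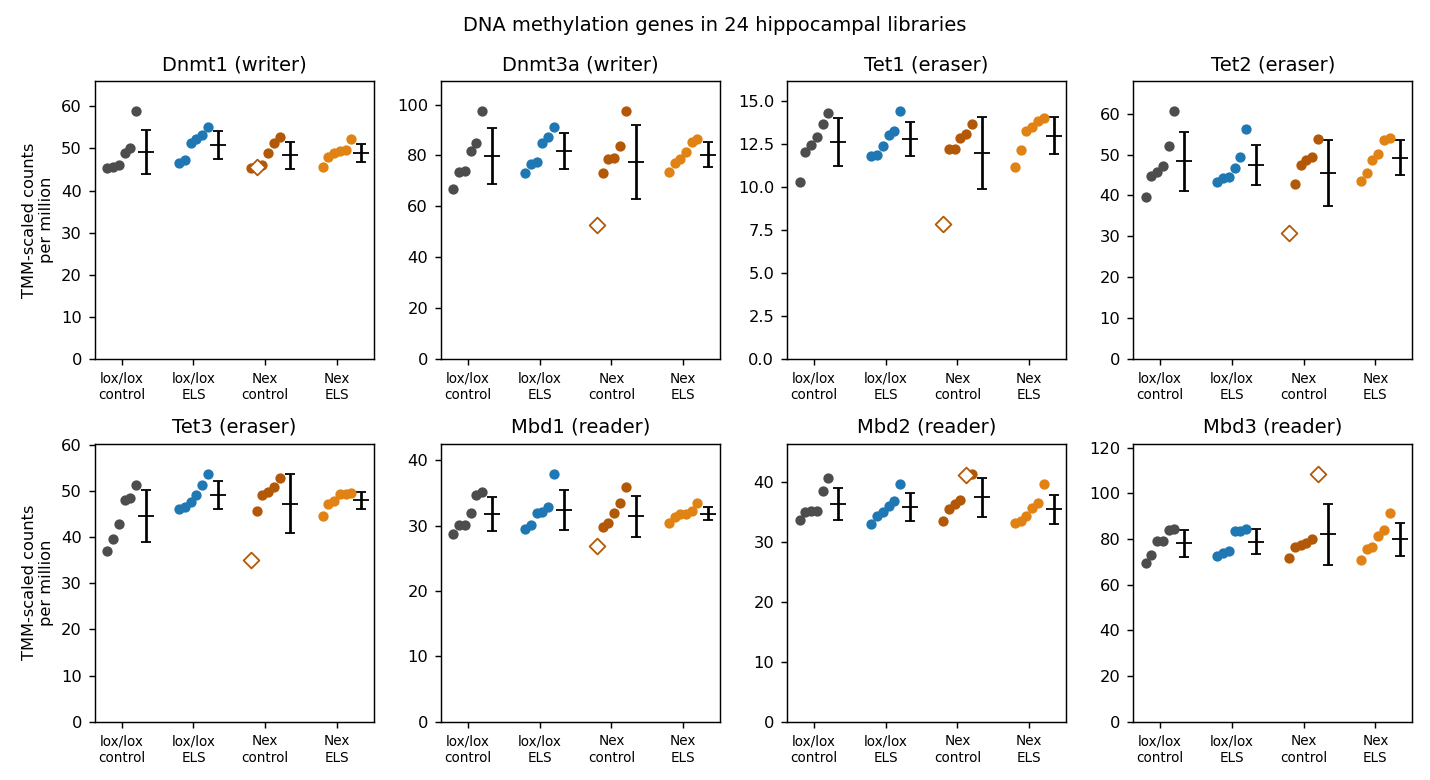
TMM-scaled CPM (y axis, from 0) of the 8 members in the 4 groups, with 1 point per mouse sorted by value within its group, and the mean ± SD of 6 mice beside it. The open diamond is Fkbp5Nex control mouse 52, at 52.6 for *Dnmt3a*, 7.82 for *Tet1*, 30.7 for *Tet2*, 35.1 for *Tet3* and 108.7 for *Mbd3*, and the groups overlap in each gene.

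No member passed an FDR of 0.02 for genotype, whereas 19 of 16209 genes did (0.117%). The model held 4 group means and 5 surrogate variables, and p-values of edgeR's quasi-likelihood test were adjusted over all genes (Benjamini-Hochberg). Over both rearing conditions, *Dnmt1* differed by -0.033 on the log2 scale in Fkbp5Nex against Fkbp5lox/lox mice (95% interval -0.090 to 0.025, adjusted p = 0.689). As a percentage this interval runs from -6.07% to 1.76%, the narrowest among the members. *Tet3* differed most, by 0.066 (-0.033 to 0.166, adjusted p = 0.622). Taken over all 8 members, the genotype intervals lay within -6.07% and 12.2%, and within -12.1% and 12.1% without surrogate variables. The direction of such small differences depended on the model, since 27 of the 56 member values over the 7 contrasts changed sign without surrogate variables. Without mouse 52 the genotype difference was -0.101 for *Mbd3* (-0.207 to 0.006), 0.091 for *Mbd1* (-0.007 to 0.190), 0.077 for *Tet1* (-0.090 to 0.245) and 0.060 for *Tet2* (-0.058 to 0.178), against -0.004, 0.030, 0.031 and -0.011 with it. Without mouse 12 that of *Mbd1* was 0.111 (0.009 to 0.214, adjusted p = 0.735, edgeR). At an unadjusted p under 0.05 there were 0 members and 1861 of all genes (11.5%).

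The same held for ELS, where 0 members and 0 of 16209 genes passed (0%). Beside that count, 577 genes (3.56%) and 0 members had an unadjusted p under 0.05 in edgeR's quasi-likelihood test, and DESeq2's Wald test also called 0 genes. *Tet1* differed most, by 0.043 in ELS against control mice (95% interval -0.073 to 0.160). *Dnmt3a*, the gene that establishes methylation in adult neurons, differed by 0.030 (-0.068 to 0.128) and *Dnmt1* by -0.010 (-0.074 to 0.054), which turned to 0.034 (-0.056 to 0.124) without surrogate variables. *Mbd3* differed by -0.022 (-0.105 to 0.061). The intervals of all 8 members lay within -7.00% and 11.7%, and within -9.41% and 16.7% without surrogate variables. Without mouse 52 the differences ran from -0.009 for *Dnmt1* to 0.015 for *Tet1*.

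Within a genotype the intervals were wider. In Fkbp5lox/lox mice, 0 members and 0 genes (0%) passed for ELS, and 788 genes had an unadjusted p under 0.05 against 1 called by DESeq2. *Tet3* was 0.110 higher after ELS (95% interval -0.041 to 0.260, adjusted p = 0.965, quasi-likelihood test). With single mice left out this ran from 0.027 without Fkbp5lox/lox control mouse 34 to 0.186 without Fkbp5lox/lox control mouse 50 (adjusted p = 0.708, edgeR). An exact two-sided permutation test on the TMM log2 CPM of this gene, without surrogate variables, gave a difference of 0.15 with p = 0.117. In Fkbp5Nex mice, 0 members and 0 genes (0%) passed, 454 genes had an unadjusted p under 0.05, and DESeq2 called 0. There *Tet3* differed by -0.050 (-0.199 to 0.099), which turned to 0.024 (-0.147 to 0.194) without surrogate variables. The interaction, the ELS effect in Fkbp5lox/lox minus that in Fkbp5Nex mice, tests the difference of these effects directly. It was 0.160 for *Tet3* (-0.045 to 0.364, adjusted p = 0.9995, edgeR), and 0 members and 0 genes passed (0%), with 651 genes at an unadjusted p under 0.05 and 0 called by DESeq2. It ran from 0.073 without Fkbp5lox/lox control mouse 74 to 0.252 without Fkbp5lox/lox control mouse 50 (adjusted p = 0.913, edgeR), and was 0.132 without mouse 52 and 0.116 (-0.125 to 0.358) without surrogate variables. *Mbd3* had an interaction of -0.072 (-0.226 to 0.082) and the other members between 0.018 and 0.072. Without surrogate variables 4 of these turned sign, *Mbd3* to 0.050, *Dnmt3a* to -0.016, *Tet1* to -0.097 and *Tet2* to -0.143.

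By genotype within each rearing condition, 0 members passed, against 8 genes among controls (0.0494%) and 2 among ELS mice (0.0123%). *Tet3* in controls was the 1 case of 56, over 8 members and 7 contrasts, with an unadjusted p under 0.05. It was 0.146 higher in Fkbp5Nex than in Fkbp5lox/lox controls (95% interval 0.006 to 0.287, adjusted p = 0.560, edgeR's quasi-likelihood test). At this unadjusted threshold 1409 of all genes (8.69%) also stood in this contrast. Without surrogate variables the value of *Tet3* was 0.084 (p = 0.320 in the same test), and the exact permutation test gave p = 0.494. The contrast shares its Fkbp5lox/lox controls with the comparison for ELS in that genotype, so the values of *Tet3* in them are not independent. Leaving out single mice moved the difference from 0.053 without Fkbp5lox/lox control mouse 74 to 0.218 without Fkbp5lox/lox control mouse 50 (adjusted p = 0.202, quasi-likelihood test), and it was 0.102 without mouse 52 (-0.082 to 0.286). *Mbd3* in this contrast changed direction with the surrogate variables while mouse 52 was included. It differed by -0.040 (-0.146 to 0.065) with surrogate variables and 0.070 (-0.099 to 0.239) without them. With surrogate variables and single mice left out, it stayed negative, from -0.158 to -0.007. Leaving out mouse 52 gave -0.158 (-0.305 to -0.010, adjusted p = 0.764, edgeR) in the fit and -0.024 in the group means (exact permutation p = 0.662). Among ELS mice *Tet3* differed by -0.013 (-0.158 to 0.131), and *Dnmt1*, which differed most, by -0.067 (-0.151 to 0.017, adjusted p = 0.807).

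**Figure D4:**
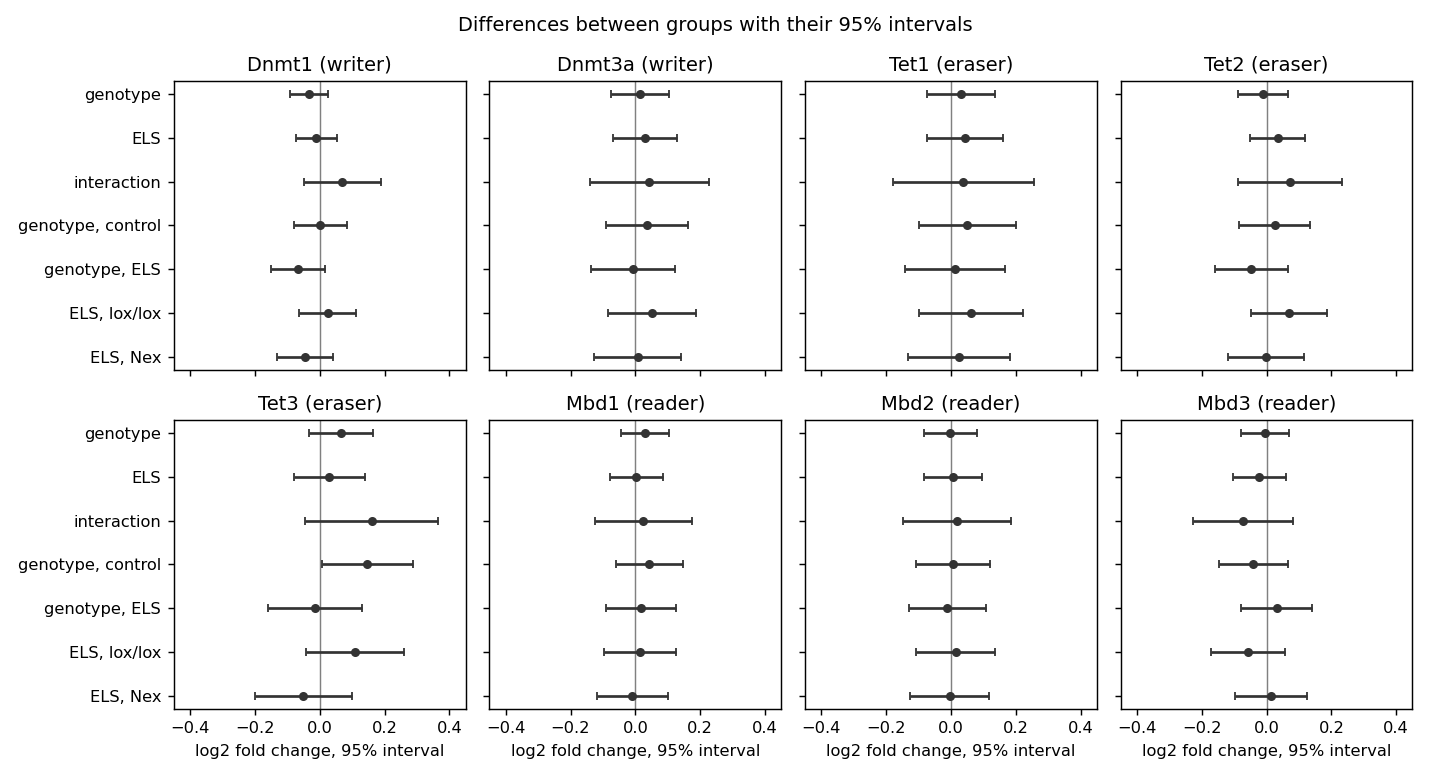
Log2 fold change of each member (points) with its 95% interval (bars) in the 7 contrasts, from edgeR's quasi-likelihood fit with 5 surrogate variables. Genotype is Fkbp5Nex minus Fkbp5lox/lox, ELS is ELS minus control, and the interaction is the ELS effect in Fkbp5lox/lox minus that in Fkbp5Nex. All intervals include 0 except that of *Tet3* for genotype in controls (0.006 to 0.287), and 27 of the 56 values change sign without surrogate variables.

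Single-gene permutation tests needed no model of the spread. Over the 4 two-group comparisons of 6 mice against 6 and the 8 members, 0 of 32 exact two-sided tests had an unadjusted p under 0.05 (smallest p = 0.117, where 924 splits allow 0.00216), and in 0 of 32 did the groups not overlap. Without mouse 52, 0 of the 16 tests that involve its group did so (smallest exact p = 0.110, *Tet3* between genotypes in controls). These tests and the check of overlap were run on the members alone. No share over all genes can therefore be set beside the counts, and they are not read as particular to the members.

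The balance between members of a role was described by ratios of their counts. Ratios of raw counts within a library do not depend on the scaling between libraries. The median of *Dnmt3a* to *Dnmt1* was 1.63, 1.60, 1.65 and 1.61 in Fkbp5lox/lox controls, Fkbp5lox/lox ELS, Fkbp5Nex controls and Fkbp5Nex ELS mice. In Fkbp5Nex controls it ran from 1.15 in mouse 52 to 1.90 in mouse 12, and the median was 1.70 without mouse 52. For *Mbd3* to *Mbd2*, which compete for a place in NuRD, it was 2.08, 2.18, 2.17 and 2.21 (2.16 in Fkbp5Nex controls without mouse 52, which had 2.64). The median of *Tet3* to *Tet1* was 3.26, 3.81, 4.06 (4.04 without mouse 52) and 3.59, with single mice from 3.07 to 4.99 in Fkbp5lox/lox controls, a range that included the other groups. That of *Tet2* to *Tet1* was 3.76, 3.68, 3.97 (4.01 without mouse 52) and 3.84. These ratios were not tested.

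Members were compared with each other across mice as deviations from the group means, in 28 pairs. Of these, 16 correlated positively and 12 negatively, and 8 had an adjusted p under 0.05 (100000 permutations within groups, two-sided, Benjamini-Hochberg over 28 pairs). The 2 writers went together, with Pearson's r = 0.67 (permutation p = 0.00048, adjusted p = 0.00756) and Spearman's rho = 0.71 (permutation p = 6e-04, adjusted p = 0.0168). Leaving out the 2 mice with the most extreme *Dnmt1* values gave r = 0.57, and without mouse 52 it was r = 0.75 (permutation p = 0.00051, adjusted p = 0.0143). *Dnmt1* and *Tet2* had r = 0.60 (permutation p = 0.00298, adjusted p = 0.0273) and rho = 0.63 (permutation p = 0.00143, adjusted p = 0.02). Their r was 0.48 without the same 2 mice. Without mouse 52 it was 0.65 (permutation adjusted p = 0.0673) and rho was 0.64 (permutation adjusted p = 0.0332).

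None of the 6 further pairs passed without mouse 52, by r or by rho. *Tet1* and *Mbd3* had r = -0.81 (permutation p = 0.00054, adjusted p = 0.00756) and rho = -0.63 (permutation p = 0.00236, adjusted p = 0.0220). Their r was -0.57 without the 2 mice most extreme in *Tet1*, of which 1 is mouse 52, and -0.60 without mouse 52, where the permutation adjusted p was 0.0883. *Dnmt3a* and *Tet3* went from r = 0.72 (rho = 0.53, permutation p = 0.00598 and 0.0182, adjusted p = 0.0335 and 0.0730) to 0.48 without mouse 52 (0.55 without mice 12 and 52, the most extreme in *Dnmt3a*). The other 4, *Dnmt3a* with *Tet2* (0.68) and *Mbd1* (0.66), *Mbd1* with *Mbd3* (-0.57) and *Tet3* with *Mbd2* (-0.55), had r of 0.41, 0.53, -0.39 and -0.47 without it. Over all 28 pairs the median r went from 0.38 to -0.03 without that mouse, 3 pairs changed sign, and 1 pair, that of the writers, kept an adjusted p under 0.05 by Pearson's r, against 8 before. By Spearman's rho the numbers were 4 with all mice and 2 without it. Without mouse 12, 13 pairs passed by r, including the 8, and 2 by rho, with r = 0.66 for the writers (permutation p = 0.00181, adjusted p = 0.0253). With the surrogate variables regressed out, 0 pairs passed. The r largest in size were then 0.61 for *Dnmt3a* and *Tet3*, -0.55 for *Tet2* and *Tet3*, and 0.50 for the writers. The labels name no batch, so no value within batches can be given.

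**Figure D5:**
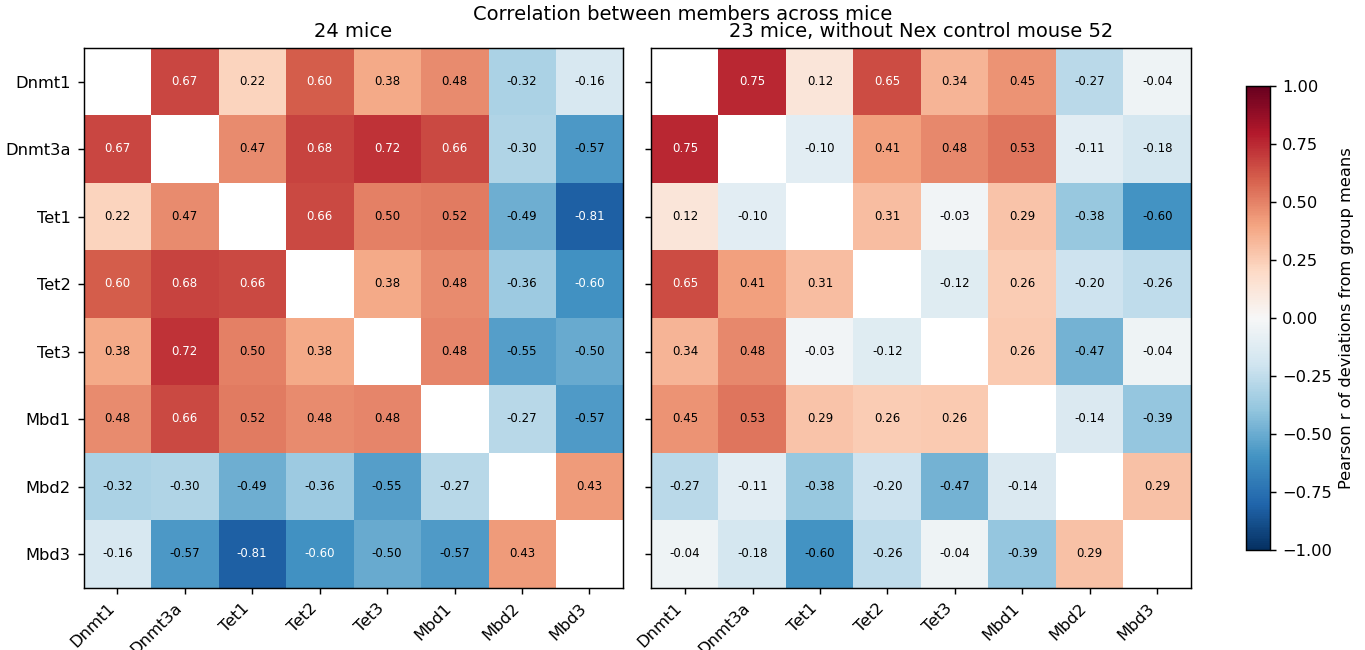
Pearson's r between members, on TMM log2 CPM as deviations from the group means, over 24 mice (left) and over 23 mice without Fkbp5Nex control mouse 52 (right). The scale runs from blue (negative) to red (positive), and the pair *Dnmt1* and *Dnmt3a* stays high (0.67 and 0.75) while that of *Dnmt3a* and *Tet1* goes from 0.47 to -0.10.

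The genes most like each member, by r of the same deviations over 24 mice, are given as a description. For *Dnmt1* they were *Zmym3* (r = 0.84), *Usp13* (0.84) and *Cntrob* (0.84), with little change without mouse 52 (0.84, 0.86 and 0.83). *Dnmt3a* was most like *Kat6a* (r = 0.91), *Mapkbp1* (0.91) and *Luc7l2* (0.90). *Tet1* was most like *Ankrd17* (r = 0.93) and *Dst* (0.91). Without mouse 52 these were 0.85 and 0.79. *Tet2* was most like *9930021J03Rik* (r = 0.90), *Adam22* (0.90) and *Ptprt* (0.89), and *Tet3* like *Ubr2* (0.91), *Baz2a* (0.88) and *Zfhx2* (0.87). Among the readers, *Mbd1* was most like *Fyco1* (r = 0.87), *Baz1b* (0.86) and *Mpc1* (0.86), *Mbd2* like *Gdf9* (0.78), *Rras* (0.77) and *Lace1* (0.74), and *Mbd3* like *Ptov1* (0.88), *Abhd17a* (0.87) and *Gnb2* (0.86). All points share their libraries, and without mouse 52 the values ran from 0.70 to 0.86.

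The wider pathway gave no call either. Of 47 other genes in 5 fixed lists, 44 passed the filter and 0 passed an FDR of 0.02, in either direction, in any of the 7 contrasts. For genotype, 5 of the 44 (11.4%), among them *Usp7*, *Zbtb33*, *Rbbp7* and *Hdac2*, had an unadjusted p under 0.05, against 11.5% of all genes, and their median log2 fold change was -0.022, against -0.001 over all genes. For ELS, 0 of the 44 did, against 3.56% of all genes, with a median of 0.003 for both. For the interaction, 2 of the 44 did (4.55%), against 4.02% of all genes, 1 of them among the writer partners. Values there ran from -0.155 to 0.957, the highest in a writer partner, with no adjusted p below 0.999 (quasi-likelihood test). The highest for ELS in Fkbp5lox/lox mice was 0.654, also in a writer partner. Reads per mouse among the tested writer partners went down to 9, and the part of counting error in these values was not estimated. Among partners of the writers, 5 of 7 were tested. *Usp7*, a deubiquitinase that stabilises DNMT1, had the smallest genotype p (log2 fold change -0.060, adjusted p = 0.434, quasi-likelihood test). *Dnmt3b*, the embryonic de novo enzyme, was low at 0.246 RPKM with 14 to 37 reads per mouse, and *Dnmt3l* and *Dppa3* did not pass the filter. *Uhrf1*, which guides DNMT1 to newly replicated DNA, had 9 to 45 reads per mouse, whereas its paralogue *Uhrf2* had 1113 to 2326 and, with -0.055, the smallest p of the list for ELS (adjusted p = 0.9995, edgeR).

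For demethylation and repair, 12 of 13 genes were tested. *Tdg*, the glycosylase that removes oxidised methylcytosine, had the smallest genotype p in that list (-0.095, adjusted p = 0.468), and *Gadd45b*, an activity-induced gene tied to demethylation, the smallest for ELS (-0.091, adjusted p = 0.9995, both from the quasi-likelihood test). All 9 other readers were tested. *Zbtb33*, which encodes the reader Kaiso, differed by 0.082 for genotype (adjusted p = 0.381, quasi-likelihood test). *Mbd5* had the smallest p for ELS, at -0.040. In the NuRD list, 12 of 12 were tested, and the histone-binding subunit *Rbbp7* (-0.098, adjusted p = 0.177) and the deacetylase *Hdac2* (-0.088, adjusted p = 0.256, same test) had the smallest genotype p, and *Mta1* the smallest for ELS, at 0.067. In the supply of the methyl donor, 6 of 6 were tested, and *Mat2b*, which regulates S-adenosylmethionine synthesis, had the smallest p for ELS, at -0.030 (adjusted p = 0.9995, quasi-likelihood test).

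Positions were taken from GENCODE vM21 (GRCm38) by Ensembl identifier. *Dnmt1* (ENSMUSG00000004099) lies on chromosome 9 from 20907209 to 20959888, *Dnmt3a* (ENSMUSG00000020661) on chromosome 12 from 3806007 to 3914443, and *Tet3* (ENSMUSG00000034832) on chromosome 6 from 83362373 to 83459084. *Tet1* (ENSMUSG00000047146) lies on chromosome 10 from 62804570 to 62908996, *Tet2* (ENSMUSG00000040943) on chromosome 3 from 133463679 to 133545139, and *Mbd3* (ENSMUSG00000035478) on chromosome 10 from 80392539 to 80399550. *Mbd1* (ENSMUSG00000024561) and *Mbd2* (ENSMUSG00000024513) lie on chromosome 18, from 74267605 to 74282732 and from 70568189 to 70626131. Exons of *Dnmt3a* share 133 bases (0.799%) with the antisense gene *Dnmt3aos*, and those of *Tet2* share 43 bases (0.255%) with *Gm42567*, also antisense. Whether reads were counted by strand was not given in the sources used here, so reads of these stretches cannot be told apart. Exons of the other 6 members overlap no other annotated exon.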

How the data were processed

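Gene-level raw counts of 24 mice were deposited by the authors without normalization. Per the study's methods and the submitters' processing notes, reads with adaptors, poly-N or low quality were removed, read pairs aligned with HISAT2 2.0.5 and counted with featureCounts 1.5.0-p3. The genome build, annotation and strandedness were not given in the sources used here. The deposited table holds no gene length, so exon lengths, summed over exons merged across transcripts, and positions were taken from GENCODE vM21. Of 46983 genes, 46488 were matched.

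A gene entered the tests when all mice of some group had 10 counts or more. After TMM scaling, counts were fitted with edgeR 4.0.16 (R 4.3.3) with 5 surrogate variables from sva 3.50.0. They were tested by quasi-likelihood at the study's FDR of 0.02, whereas the study used DESeq2. Per its methods, the study also removed a sample as an outlier on the first principal component. Which sample was not given in the sources used here, and all 24 mice were kept. Alternatives were DESeq2 1.42.0 (Wald test, size factors), other filters, no surrogate variables, an FDR of 0.05, fits of only the 12 mice compared and leaving out each mouse. Permutation tests, correlations and figures used Python 3.11.15 with scipy 1.17.1 and matplotlib 3.10.9. Log2 CPM used a prior count of 0.5. Samples were grouped by their labels. Per the study, each dam with its litter was assigned to ELS or control rearing. The labels name no litter, so whether littermates are among the 6 mice of a group was not given. The tests took each mouse as independent, so no p-value, for ELS and the interaction in particular, takes shared litters into account. All 8 members were named. From each list the gene with the smallest p for genotype and for ELS was named, and the 3 genes most like each member. A few genes that this rule or a count includes are not reported here. *Dnmt3b*, *Dnmt3l*, *Dppa3*, *Uhrf1* and *Hdac2* were added with their values known, as were the settings without mouse 52 and the correlations without mouse 12. The members and lists were chosen with earlier results of these data known.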

Additional observations from a re-analysis of the deposited data

Results flagged for a closer look

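In each group of 6 mice, the highest and the lowest value of each member were set against the range of the group by Dixon's ratio, the gap to the nearest mouse divided by the whole range. Of 32 combinations of gene and group, 4 exceeded the critical value, which about 1 in 20 independent normal samples would exceed by chance. The members of a group share the same 6 libraries, so the count is no measure of an excess over that rate. Of the 4, 3 belong to Fkbp5Nex control mouse 52. *Tet1* was lowest in it (ratio 0.797, 7.82 CPM against 12.2 to 13.6 in the other 5 mice), as was *Tet3* (ratio 0.643, 35.1 CPM against 45.6 to 52.7). *Mbd3* was highest in it (ratio 0.744, 108.7 CPM against 71.9 to 79.9). The remaining one was *Dnmt1* in Fkbp5lox/lox control mouse 44, which was highest (ratio 0.631, 58.9 CPM against 45.5 to 50.0).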

How the results depend on the processing

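In all alternatives run, 0 members were called in each of the 7 contrasts, also at an FDR of 0.05 and with each of the 24 mice left out in turn (0 to 0). The size and sign of the small member differences moved with the model. Of 56 log2 fold changes, 27 changed sign without surrogate variables, 0 with DESeq2's Wald test, 0 with DESeq2's size factors, 2 with filterByExpr and 3 with no filter. With only the 12 mice compared, 7 of 32 did, and with single mice left out 145 of 1344, with values from -0.158 to 0.252. The unadjusted p under 0.05 of *Tet3* for genotype in controls held in 12 of the 24 fits that leave out a mouse. Pairs of members at an adjusted p under 0.05 numbered 8, against 0 with the surrogate variables regressed out, 1 without mouse 52 and 13 without mouse 12, both left out after seeing the data. The cause was not tested.

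Genes called over the whole table for genotype were 19, against 3 without surrogate variables, 50 at an FDR of 0.05, 36 with no filter, 70 with DESeq2's Wald test and 2 to 32 with a mouse left out. Without Fkbp5Nex control mouse 12 there were 2, as there were without mouse 52. For genotype in controls they were 8, against 2, 29, 24 and 53 in the same order, 4 with only the 12 mice and 1 to 14 with a mouse left out. For genotype in ELS mice they were 2, against 4 with the Wald test, and for ELS and for ELS in Fkbp5Nex mice 0, against 0 to 1 with a mouse left out. No paired analysis was possible because the labels name no litter, and the replicate numbers identify single mice.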
